A study of Mus musculus with 4 samples.

Results

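The Pax-, Six- and Eya-family genes described here were *Pax1*, *Pax2*, *Pax8*, *Pax9*, *Six2*, *Six4*, *Eya1*, *Eya2* and *Eya4*, which are 9 of the 32285 genes in the deposited count tables, chosen by symbol. Their RNA was measured in single GFP+ cells sorted from the dissected pharyngeal region and heart of E9.5 mouse embryos, whose strain is outbred SwissWebster in the labels and a mix of C57BL/6 and Swiss Webster in the study's methods. The cHet group (*Tbx1Cre/+; Kmt2d F/+; GFP F/+*) lost 1 copy of *Kmt2d*, a histone methyltransferase, in the *Tbx1* lineage, and the cKO group (*Tbx1Cre/+; Kmt2d F/F; GFP F/+*) lost both copies there. Both groups carried the *Tbx1Cre* knockin, which inactivates 1 *Tbx1* allele, and no group with 2 intact *Tbx1* alleles was analysed here. Each group had 2 libraries, each a pool of 4 embryos in Rep1 (Next GEM kit) or 3 embryos in Rep2 (GEM-X kit), so that n = 2 per genotype. With the replicate as a block, each gene has 1 residual degree of freedom, from how its genotype difference varied between the 2 replicates. The p-values therefore rest largely on variance information shared across genes. They do not measure the spread between pools of 1 genotype and kit. The comparison of genotypes addressed how the loss of the second *Kmt2d* copy alters gene expression when *Tbx1* is heterozygous.

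Pax proteins bind DNA through a paired domain, Six-family proteins bind DNA through a homeodomain, and Eya proteins, which carry a phosphatase domain, act as coactivators of Six-family proteins. The network is known from fly eye development and recurs in vertebrate pharyngeal pouches, cranial placodes, the ear, the kidney and muscle. *Pax1* and *Pax9* are close paralogs used in pharyngeal pouch endoderm, and *Pax2* and *Pax8* are close paralogs used in the otic placode. *EYA1* mutations cause branchio-oto-renal syndrome in humans.

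The libraries held 179454146 to 234726019 UMIs, where a UMI is 1 captured transcript, and 5869 to 11938 cells were kept in each. The cHet library of Rep1 stood apart, with 60% of its UMIs in kept cells against 86.1% to 91.6% in the other 3 libraries. Kept cells shared 12 barcodes between the libraries of Rep1 and 41 between those of Rep2, and no other pair of libraries shared one. *Kmt2d* itself was found at 17.6 to 24.1 CPM (UMIs of a gene per 1e6 UMIs of its cell group) in cHet and 13.3 to 23.9 CPM in cKO (TMM-scaled) across the 11 cell groups, and these 3′ counts do not check the deletion, since the transcript end can remain. Clusters were named from marker genes that left out the Pax, Eya and Six-type families, which were also left out of the clustering, and each named type is a group of cells like that type. There were 1104 ectoderm-like, 656 endoderm-like, 592 otic-like, 600 neuron-like, 3337 branchiomeric muscle (BrM)-like and 3445 multilineage progenitor (MLP)-like cells. The other groups were the anterior and posterior second heart field (aSHF and pSHF), cardiac muscle, endothelium and 18113 remaining cells, whose clusters carry no name of these types. Summed endoderm markers reached 138 to 286 CPM in the endoderm libraries and 2.10 to 5.33 CPM in the otic ones, whereas summed otic markers reached 513 to 866 CPM in otic cells and 20.3 to 39.5 CPM in endoderm. Ectoderm and endoderm were less distinct. Endoderm markers held 57.1 to 101 CPM in ectoderm, and ectoderm markers held 460 to 689 CPM in ectoderm and 54.2 to 70 CPM in endoderm. These markers also named the clusters.

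The 4 Pax genes lie apart in the genome. In GENCODE M21 on GRCm38, *Pax1* (ENSMUSG00000037034) spans chr2:147361925-147393295, *Pax8* (ENSMUSG00000026976) chr2:24420560-24475599, *Pax9* (ENSMUSG00000001497) chr12:56691767-56712822 and *Pax2* (ENSMUSG00000004231) chr19:44756045-44837871. The 250 bases before a RefSeq start site (GRCm38.p6) are shown for these 4 genes because their RNA fell into an endodermal and an otic or ectodermal pair, and the windows let the pairs be set side by side. Each is given 5′ to 3′ on the gene's strand, and capitals mark matches on either strand to 1 of 5 motifs. A CCAAT box was read as CCAAT. The GC box was GGGCGG. The TATA box was TATAAA. A Six-family core was TCAGGTT. The paired-domain core was GTCACGC. No motif overlapped another in these windows. The *Pax1* and *Pax9* windows lie within the gene spans given above, and the *Pax2* and *Pax8* windows lie upstream of theirs. For *Pax2* the second of 3 RefSeq starts is shown.
Pax1, chr2:147364744-147364993, plus strand: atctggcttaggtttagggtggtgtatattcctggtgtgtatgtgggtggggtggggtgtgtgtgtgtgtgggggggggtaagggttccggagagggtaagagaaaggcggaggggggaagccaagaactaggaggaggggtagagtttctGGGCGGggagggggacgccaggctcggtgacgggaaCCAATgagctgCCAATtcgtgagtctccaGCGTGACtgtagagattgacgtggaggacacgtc
Pax9, chr12:56695221-56695470, plus strand: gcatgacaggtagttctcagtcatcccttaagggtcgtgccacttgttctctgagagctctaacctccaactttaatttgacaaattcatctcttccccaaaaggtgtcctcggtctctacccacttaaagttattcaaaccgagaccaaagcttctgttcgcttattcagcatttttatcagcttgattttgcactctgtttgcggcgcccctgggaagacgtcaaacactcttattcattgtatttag
Pax2, chr19:44755502-44755751, plus strand: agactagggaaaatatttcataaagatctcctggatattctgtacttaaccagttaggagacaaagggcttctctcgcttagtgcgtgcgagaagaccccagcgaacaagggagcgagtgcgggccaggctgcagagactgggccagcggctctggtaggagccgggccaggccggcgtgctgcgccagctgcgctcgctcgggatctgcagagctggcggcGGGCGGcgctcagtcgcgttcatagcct
Pax8, chr2:24475600-24475849, minus strand: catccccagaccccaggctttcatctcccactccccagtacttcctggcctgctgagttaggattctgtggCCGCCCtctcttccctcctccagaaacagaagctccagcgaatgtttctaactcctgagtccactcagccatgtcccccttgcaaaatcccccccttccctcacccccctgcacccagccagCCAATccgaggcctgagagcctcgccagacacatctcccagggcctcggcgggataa
The *Pax1* window held 2 CCAAT boxes, 1 GC box and 1 paired-domain core, and the *Pax9* window held none of the 5 motifs. The *Pax2* window held 1 GC box, and the *Pax8* window held 1 CCAAT box and 1 GC box. Of 32851 RefSeq windows of the same length, 33.8% held a CCAAT box, 32.7% a GC box, 12.4% a TATA box, 3.49% a Six-family core and 1.78% a paired-domain core. A match describes letters and not a bound site.

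*Pax1* was all but limited to endoderm among the named types. Its level there was 74.0 CPM in cHet and 91.9 CPM in cKO of Rep1, and 81.6 CPM and 95.1 CPM in Rep2, or 85.7 ± 9.66 CPM (SD, n = 4). Ectoderm came next at 0.815 to 1.74 CPM, so the endoderm libraries stood apart from all others. No *Pax1* UMI was found in 592 otic cells, which allows up to 0.507% of cells with a UMI and up to 0.228 CPM. A *Pax1* UMI was found in 55.9% to 65.2% of endoderm cells per library, and the median depth per library was 19523.5 to 23037 UMIs in endoderm and 18315 to 26504 UMIs in otic cells. Outside the named types, *Pax1* reached 25.3 CPM in a cluster of 486 cells led by *Pax3*, *Tcf15* and *Meox2*, genes known from somites, where 17.5% of cells had a UMI (95% Wilson interval 14.4% to 21.1%).

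*Pax9* was highest in endoderm as well, but was found more widely. Its endoderm level was 144 CPM in cHet and 186 CPM in cKO of Rep1, and 235 CPM and 265 CPM in Rep2, or 207 ± 53.6 CPM (SD, n = 4). The Rep2 libraries were higher than those of Rep1 in both genotypes. The remaining cells followed at 29.5 ± 8.10 CPM, with up to 67.8 CPM in 1 of their clusters, where 60.1% of 1512 cells had a UMI. Ectoderm held 11.8 ± 1.74 CPM and overlapped with the MLPs at 10.5 ± 3.76 CPM, and the otic cells held 1.48 ± 1.25 CPM. Both genes have a transcript on the opposite strand within their span, and these were the genes whose levels followed them most closely over the 44 sums of 11 cell groups and 4 libraries (*AI646519* with *Pax1*, r = 0.985; *Gm15524* with *Pax9*, r = 0.867). *Slc8a3* and *Vtn* came next for *Pax9* (r = 0.815 and 0.798), and *Gm12446* and *Foxe1* for *Pax1* (r = 0.974 for each). These correlations describe sums that share libraries.

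Within endoderm, *Pax1* and *Pax9* differed in where they were highest. *Pax9* peaked in a subcluster of 100 cells led by *Aldh1a7*, *Aldh1a1* and *Fgf8*, at 296 CPM in cHet and 293 CPM in cKO of Rep1, and 501 CPM and 485 CPM in Rep2. *Pax1* stood there at 72.2, 57.0, 43.6 and 82.6 CPM in the same order. Its highest level with the libraries pooled, 148 CPM, was in a subcluster of 76 cells led by *Sfrp2*, *Rgcc* and *Ctxn3*, where *Pax9* stood at 321 CPM. Of these cells 49 came from the cKO library of Rep2, and *Pax1* there was at 63.4 CPM in cHet (12 cells) and 106 CPM in cKO (3 cells) of Rep1, and at 157 CPM (12 cells) and 170 CPM in Rep2, so that this rank did not hold in Rep1, where the subcluster led by *Rbp4* and *Dcc* held 141 CPM in cHet. In a subcluster of 66 cells led by *Pyy* and *Hoxc4*, *Pax1* gave 3 UMIs in all (1.91 CPM) and *Pax9* gave 231 UMIs (147 CPM). That subcluster held only 4 and 5 cells in the Rep1 libraries, and its 5 cells of cKO Rep1 had no *Pax9* UMI. After each cell was thinned to 5000 UMIs, both genes were found in 19.1% of 656 endoderm cells, beside 17.1% if they had been spread independently.

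**Figure D1:**
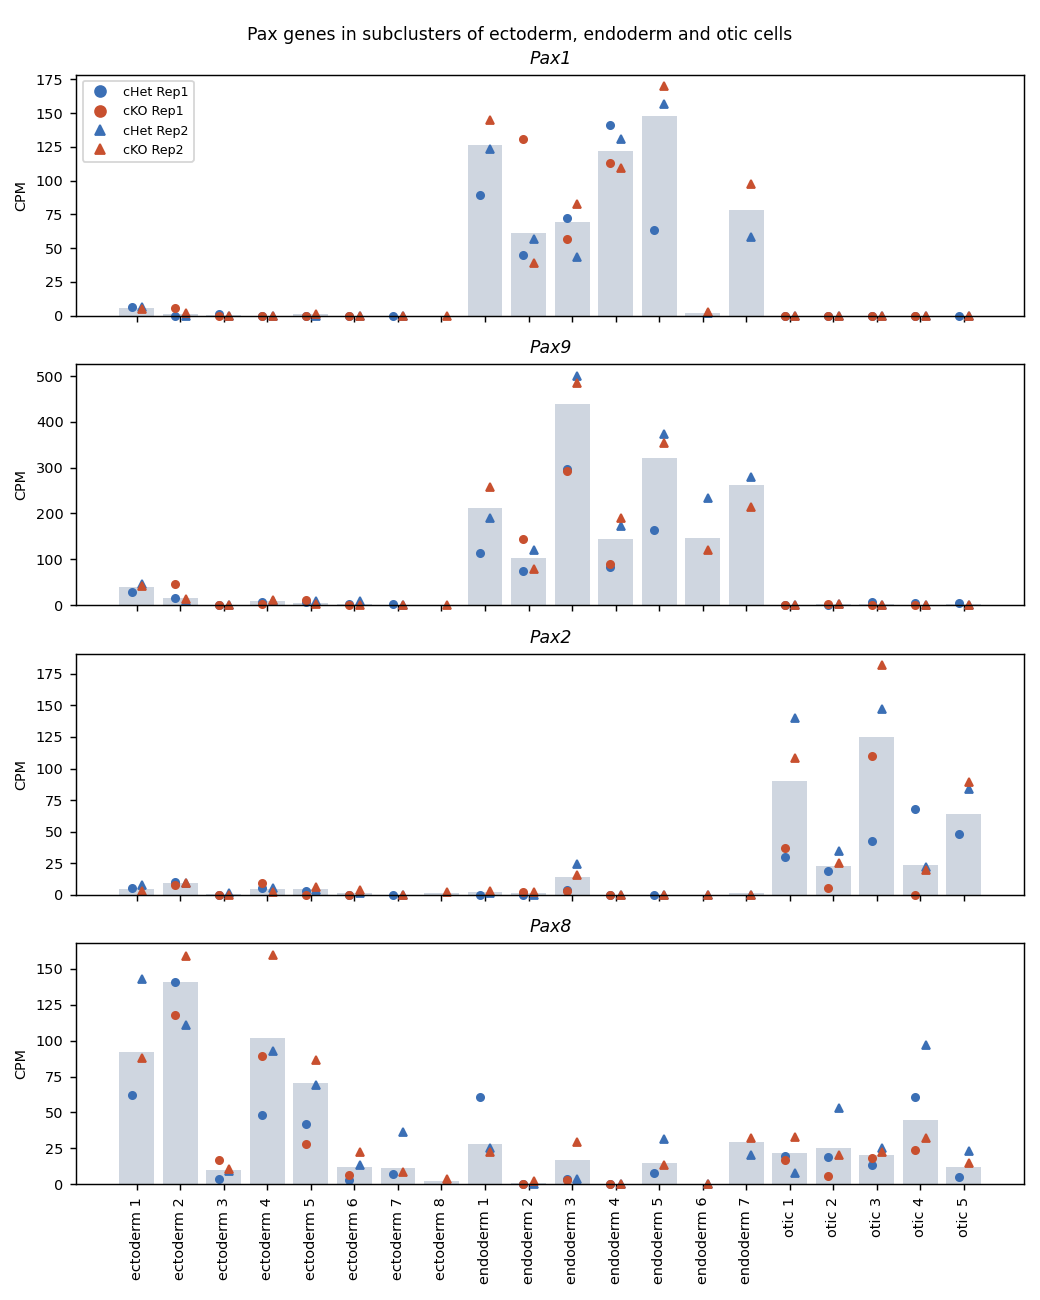
Level of 4 Pax genes (CPM, linear axis) in subclusters of ectoderm, endoderm and otic cells. Bars give all libraries together, and points give single libraries with at least 10 cells of the subcluster (circles Rep1, triangles Rep2, blue cHet, red cKO); *Pax9* reached 439 CPM in endoderm 3, and *Pax1* 1.91 CPM in endoderm 6.

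*Pax2* was highest in otic cells. Its level was 39.0 CPM in cHet and 29.8 CPM in cKO of Rep1, and 97.8 CPM and 82.4 CPM in Rep2, so the replicates differed more than the genotypes (62.2 ± 33.0 CPM, SD, n = 4). All 4 otic libraries lay above the neuron libraries, at 6.37 ± 3.22 CPM, and ectoderm held 3.92 ± 0.478 CPM. Endoderm held 45 *Pax2* UMIs in all, of which 35 lay in the subcluster led by *Aldh1a7* and *Fgf8*. *Pax2* was highest in otic subcluster 3, whose first leading gene was *Fgf12* (125 CPM over all libraries), and lowest in otic subcluster 2, led by *Cpa6* and *Bmper* (22.4 CPM). In BrM, 0.12% of 3337 cells had a *Pax2* UMI, against 28.9% to 51.5% of otic cells per library, with median depths of 18108 to 26643 UMIs in BrM. The genes most like *Pax2* were *Nalcn*, *Arg2* and *Fbxo2* (r = 0.931, 0.925 and 0.901 over the same 44 sums). *Fbxo2* was among the markers that named the otic cells.

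*Pax8* was led by ectoderm instead. Ectoderm held 52.5 CPM in cHet and 46.1 CPM in cKO of Rep1, and 68.9 CPM and 87.8 CPM in Rep2 (63.8 ± 18.7 CPM, SD, n = 4). Otic cells followed at 23.4 ± 8.04 CPM and endoderm at 12 ± 4.33 CPM, whose libraries overlapped although otic cells were higher in 4 of 4 libraries. Ectoderm subcluster 2, led by *Srrm4*, *Neurog2* and *Phox2a*, genes of neurogenic placodes, had the highest *Pax8* level, at 141, 118, 111 and 159 CPM in cHet and cKO of Rep1 and then of Rep2. Ectoderm subcluster 3, led by *Ralyl* and *Tafa1*, held 9.65 CPM over all libraries. A *Pax8* UMI was found in 0.15% of BrM cells and in 36.8% to 49.8% of ectoderm cells per library, whose median depths were 16901 to 21420 UMIs. *Spint1*, *Fermt1* and *Cldn3* were most like *Pax8* (r = 0.948, 0.945 and 0.945). After thinning to 5000 UMIs, 18 of 592 otic cells had both *Pax2* and *Pax8* (3.04%), beside 2.05% for independent spread, but the cHet library of Rep1 had 1 such cell (1.01%, beside 1.57%), and the share with *Pax2* ran from 12.2% to 28.8% between libraries.

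The Six-family genes were broader than the Pax genes. *Six2*, known for keeping nephron progenitors undifferentiated, was highest in the MLPs, at 31.1 CPM in cHet and 32.9 CPM in cKO of Rep1, and 49.8 CPM and 65.3 CPM in Rep2. Ectoderm (27.6 ± 4.77 CPM), the remaining cells (26.3 ± 3.79 CPM) and pSHF (24.0 ± 3.29 CPM) followed with overlapping libraries, and cardiac muscle and endothelium were lowest at 2.35 ± 1.13 CPM and 1.98 ± 0.670 CPM. Of the 2 clusters of MLPs, the larger, of 2597 cells, held 61.5 CPM and the smaller, of 848 cells, held 11.8 CPM. Among the remaining cells, a cluster of 3867 cells held 51 CPM, with a *Six2* UMI in 55.5% of cells, and a cluster of 1512 cells held 41.2 CPM. *Six4* differed little between most types: neurons (46.8 ± 10.8 CPM), otic cells (46.6 ± 14.5 CPM) and ectoderm (43.8 ± 11.4 CPM) overlapped, and its libraries fell apart only below aSHF, at 8.78 ± 2.36 CPM in cardiac muscle and 5.07 ± 1.35 CPM in endothelium. The genes most like *Six2* were *Flrt3*, *Edn3* and *2900060N12Rik* (r = 0.887, 0.862 and 0.842), and those most like *Six4* were *Trim2*, *Arnt2* and *Epb41l4b* (r = 0.942, 0.940 and 0.928).

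*Eya1* was found in every type and was high in 7 of the 11. Otic cells held 340 CPM in cHet and 290 CPM in cKO of Rep1, and 637 CPM and 658 CPM in Rep2, and the MLPs, neurons, ectoderm, BrM, endoderm and remaining cells overlapped in turn from 423 ± 141 CPM down to 260 ± 82.8 CPM. The heart fields stood apart below these, at 66.2 ± 4.52 CPM in pSHF and 64.4 ± 19.5 CPM in aSHF, and cardiac muscle was lowest at 20.3 ± 8.38 CPM. *Eya1* and *Six4* followed each other over the 44 sums (r = 0.922), the highest value for any pair of the 9 genes. After thinning, 598 of 3445 MLPs (17.4%) had both *Six2* and *Eya1*, beside 15.4% for independent spread. *Adgrl3*, *Cecr2* and *Epb41l4b* were most like *Eya1* (r = 0.910, 0.907 and 0.877).

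*Eya2* and *Eya4* each had a leading type of their own. *Eya2* stood in neurons at 215 CPM in cHet and 256 CPM in cKO of Rep1, and 533 CPM and 504 CPM in Rep2, and every neuron library lay above every library of ectoderm, the next type (29.9 ± 7.10 CPM). Among the remaining cells, the cluster led by *Hes5* held 126 CPM of *Eya2*, with a UMI in 29.7% of 354 cells. The cluster led by *Pax3* held 63.8 CPM. Within ectoderm *Eya2* was highest in the subcluster led by *Srrm4* and *Neurog2* (70.6 CPM over all libraries). *Onecut2*, *Spock2* and *Gadd45a* were most like it (r = 0.905, 0.903 and 0.895). *Eya4* was highest in BrM, at 255 CPM in cHet and 232 CPM in cKO of Rep1, and 356 CPM and 422 CPM in Rep2, where 96.1% of 3337 cells had a UMI, against 11% of 1912 endothelial cells. The MLPs (192 ± 47.2 CPM) were lower than BrM in each of 4 libraries but overlapped with it, their highest library (253 CPM) lying above the lowest of BrM, and otic cells (167 ± 70.9 CPM) overlapped with the MLPs. *Ntf3*, *Smoc1* and *Pcolce2* were most like *Eya4* (r = 0.935, 0.842 and 0.820).

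**Figure D2:**
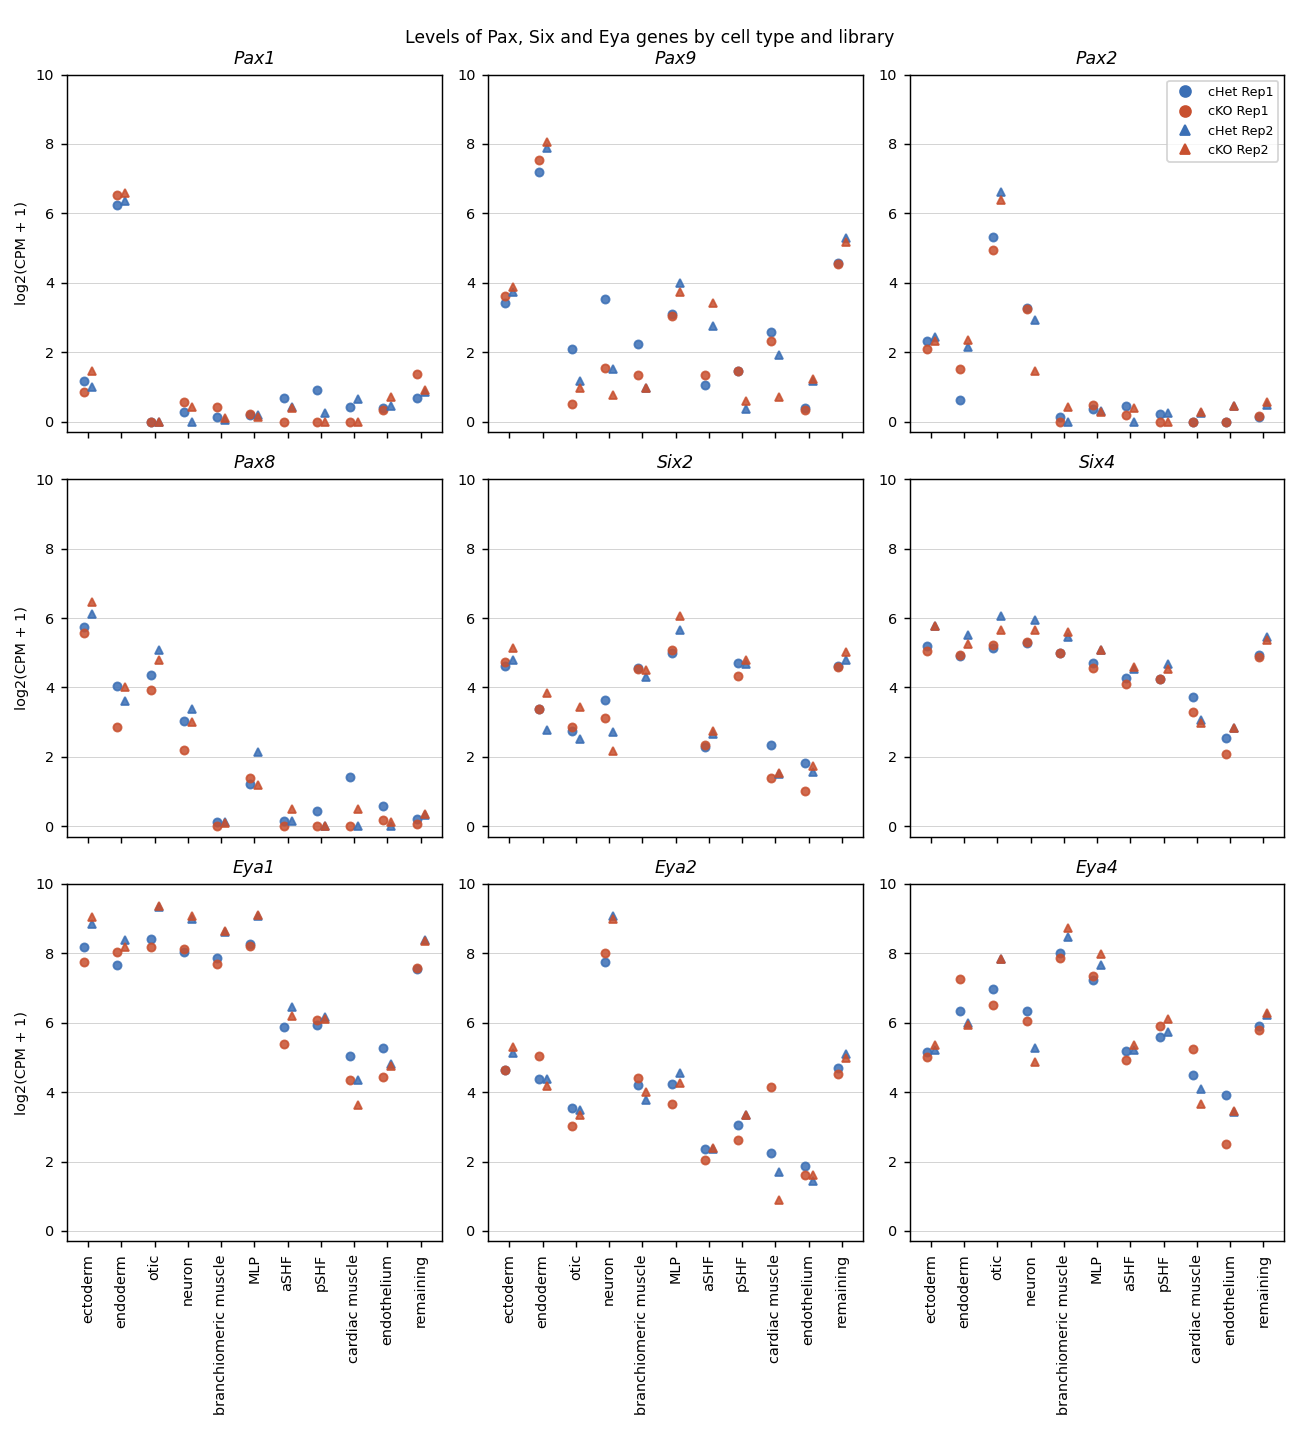
Level of each gene, as log2(CPM + 1), in 11 cell groups and 4 libraries (circles Rep1, triangles Rep2, blue cHet, red cKO). *Pax1*, *Pax9*, *Pax2*, *Pax8* and *Eya2* each have 1 group whose 4 libraries lie above all others, whereas *Six4* and *Eya1* are spread over most groups.

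cKO was compared with cHet in each cell group on UMIs summed per library, with the replicate as a block, by edgeR's quasi-likelihood test with Benjamini-Hochberg adjustment over all genes tested in that group. *Eya4*, a coactivator gene whose human counterpart is a deafness gene, was higher in the MLPs of cKO, and no other of the 9 genes passed the adjusted threshold of 0.05 in any group. Of 99 pairs of gene and cell group, 76 passed the filter on low counts and 1 was called, beside 0.333% of all 145721 pairs tested. In the MLPs 1 of 7 genes tested was called, against 0.737% of 14511 genes in either direction and 0.42% higher in cKO. An unadjusted p under 0.05 was reached by 16 of the 76 pairs (21.1%), against 5.80% of all pairs. These pairs are not independent, since they repeat 9 genes over groups from the same 4 libraries. *Eya4* reached it in endoderm, neurons, the MLPs and pSHF, and *Eya1* in aSHF, cardiac muscle and endothelium. *Six2* and *Pax9* also reached it in endoderm, and *Six2*, *Eya2* and *Pax8* in the MLPs. The remaining pairs were *Pax2* in otic cells, *Pax9* in aSHF, and *Pax1* and *Eya2* in the remaining cells. The log2 fold change was smaller than 0.5 in 63 of the 76 pairs and larger than 1 in 1 pair, with 34 pairs higher and 42 lower in cKO.

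*Eya4* in the MLPs was at 167 CPM (TMM-scaled, as are all levels beside a test) in cHet and 185 CPM in cKO of Rep1, and at 178 CPM and 225 CPM in Rep2. Both cKO libraries lay above both cHet libraries, and the log2 fold change was 0.25 ± 0.06 (SE, edgeR adjusted p = 0.00586), with 0.14 in Rep1 alone and 0.34 in Rep2 alone. The call was lost with DESeq2 (adjusted p = 1), with RLE scaling (0.0564), with no filter on low counts (0.946), after thinning (0.316) and without the replicate block (1). Fits without any single library also had to drop the block, since 3 libraries leave it no residual degree of freedom, and gave log2 fold changes of 0.10 to 0.39 with no call, as the unblocked fit of all 4 libraries did. The call held with doublets kept (0.22, edgeR adjusted p = 0.0188) and with at least 1000 genes per barcode (0.33, edgeR adjusted p = 0.0268). The 1000-gene setting enlarged the libraries unevenly, counted before doublet removal. It passed 22103 barcodes in cHet of Rep1, beside 5869 cells kept in the main fit. These were 7680 beside 6291 in cKO of Rep1, 10880 beside 9350 in cHet of Rep2, and 13978 beside 11938 in cKO of Rep2. The part of the added barcodes was not tested. Markers of BrM, where *Eya4* is highest, moved with it: their sum over 5 markers, none at 0, was 70.2 and 74 CPM in the MLPs of cHet and cKO in Rep1 and 109 and 152 CPM in Rep2, and their part in the result was not tested. Most of that sum was *Tcf21* (55.9, 59.2, 93 and 131 CPM in the same order), and the other 4 markers together held 14.4, 14.8, 15.8 and 21.5 CPM. After each cell was thinned to 5000 UMIs, an *Eya4* UMI was found in 41.4% of cHet and 47.5% of cKO MLPs in Rep1 and in 52.6% and 60.4% in Rep2.

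*Six2* and *Eya2* came nearest to the threshold in the same cells. *Six2* was at 35.1 CPM in cHet and 37.6 CPM in cKO of Rep1, and 43.6 CPM and 58.1 CPM in Rep2, with a log2 fold change of 0.29 (edgeR adjusted p = 0.0542). *Eya2* was at 20.2 and 13.2 CPM in Rep1 and 19.4 and 16.2 CPM in Rep2, with a log2 fold change of -0.40 (edgeR adjusted p = 0.0597). The genotypes overlapped for *Six2* and did not for *Eya2*. Both passed when doublets were kept (edgeR adjusted p = 0.0122 and 0.0427). After thinning the log2 fold change of *Eya2* was -0.06. That of *Six2* was -0.07 without the cKO library of Rep2, in a fit with no block that sets a Rep1 library against cHet libraries of both kits, whereas the Rep1 pair alone gave 0.10. *Eya1*, the most abundantly counted of the 9 in these cells, was at 344 and 340 CPM in Rep1 and 468 and 492 CPM in Rep2, with a log2 fold change of 0.03.

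**Figure D3:**
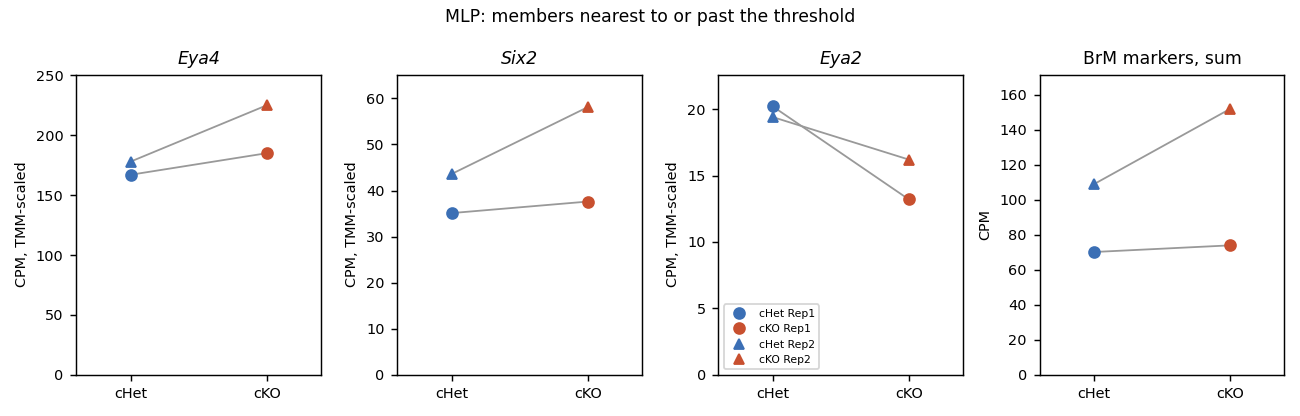
Levels in the MLPs of each library (TMM-scaled CPM; circles Rep1, triangles Rep2, with a line joining the libraries of a replicate), and at right the sum of 5 BrM markers (CPM). *Eya4* was 185 and 225 CPM in cKO against 167 and 178 CPM in cHet, and the BrM markers were 109 CPM in cHet and 152 CPM in cKO of Rep2, with no test.

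In endoderm no gene was called, beside 0.0868% of all genes, and 7 of the 9 genes had higher values in cKO (median log2 fold change 0.26), where 50.9% of all genes were higher. Direction was the same in both replicates for only 4 of the 9. *Eya1*, *Eya2*, *Eya4*, *Six2* and *Pax8* went in opposite directions. Both leading Pax genes of endoderm were among the 7 with higher values. *Pax1* was at 84.7 CPM in cHet and 101 CPM in cKO of Rep1, and 72.7 and 86.9 CPM in Rep2 (log2 fold change 0.26, edgeR adjusted p = 1). *Pax9* was at 164 and 205 CPM in Rep1 and 209 and 243 CPM in Rep2 (log2 fold change 0.26, edgeR adjusted p = 1). The genotypes did not overlap for *Pax1* and overlapped for *Pax9*. The make-up of endoderm moved with *Pax9*: the subcluster led by *Aldh1a7*, where *Pax9* is highest, made up 11.1% of cHet and 19.7% of cKO endoderm cells in Rep1 and 11.3% and 17.8% in Rep2, while *Pax9* within it was no higher in cKO, as given above. The part of this share in the *Pax9* values was not tested. *Eya4* was at 91.0 and 166 CPM in Rep1 but 56.3 and 54.7 CPM in Rep2, so its difference lay in Rep1. The cKO endoderm of Rep1, of 66 cells, also carried liver markers, with a sum over 4 markers, none at 0, of 394 CPM against 0.925 to 10.6 CPM in the other 3 libraries, and the part of these cells in the result was not tested. The difference in *Six2* lay in Rep2 instead, at 10.7 and 10.3 CPM in Rep1 and 5.15 and 12.3 CPM in Rep2.

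In otic cells (0.0721% of all genes called) none of the 7 genes tested was called, and 6 of the 7 had lower values in cKO (median log2 fold change -0.23), where 47.8% of all genes were higher. Direction was the same in both replicates for 5 of the 7, while *Six4* and *Eya1* went in opposite directions. *Pax2* was at 45.0 CPM in cHet and 34.3 CPM in cKO of Rep1, and 86.3 and 72.1 CPM in Rep2 (log2 fold change -0.30, edgeR adjusted p = 0.923). *Pax8* was at 22.7 and 16.4 CPM in Rep1 and 28.8 and 23.6 CPM in Rep2 (log2 fold change -0.35, edgeR adjusted p = 0.993). Each was lower in cKO within both replicates, but the replicates differed more than the genotypes did for *Pax2*. *Six2*, the exception in direction, was at 6.63 and 7.24 CPM in Rep1 and 4.15 and 8.66 CPM in Rep2. The cHet otic cells of Rep1 also held more endothelium markers (32.0 CPM over 6 markers, against 0.420 to 3.76 CPM in the other 3 libraries) and BrM markers (33.2 CPM over 5 markers, against 2.13 to 8.15 CPM). Otic subcluster 5, led by *Twist1*, *Col3a1* and *Prrx1*, genes of mesenchyme, made up 19.2% of cHet and 1.11% of cKO otic cells in Rep1 and 9.85% and 4.43% in Rep2, and the *Pax2*-high subcluster 3 made up 20.2% and 12.2%, and 21.2% and 17%. The summed otic markers were 513 CPM in cHet and 570 CPM in cKO of Rep1, and 727 and 866 CPM in Rep2. The part of these shares and markers in the values of the 7 genes was not tested.

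In ectoderm (0.0158% of all genes called) none of 8 genes tested was called, and *Pax8* moved in opposite directions, from 59.6 to 52.4 CPM in Rep1 and from 60.7 to 78.2 CPM in Rep2. The make-up of ectoderm moved with it: the *Pax8*-low subcluster 3 made up 15% of cHet and 25.7% of cKO ectoderm cells in Rep1 and 22.3% and 14.8% in Rep2, and the *Pax8*-high subcluster 2 made up 17% and 14.3%, and 17.4% and 20.9%, and their part was not tested. *Eya1* went the same ways, from 326 to 242 CPM and from 407 to 470 CPM. Neurons had no gene called of 12016 by edgeR (percent called 0), where 637 had an unadjusted p under 0.05 and DESeq2 called 5, and *Eya2*, which leads there, was at 237 and 285 CPM in Rep1 and 484 and 461 CPM in Rep2. Of the 7 genes tested in neurons 5 had lower values in cKO, with a median log2 fold change of -0.34 beside -0.00 over all genes. Direction was the same in both replicates for 5 of the 7, of which *Eya1* was higher in cKO. *Eya4* there was at 88.2 CPM in cHet and 72 CPM in cKO of Rep1, and 34.2 and 25.7 CPM in Rep2 (log2 fold change -0.34, edgeR adjusted p = 0.892). Other markers fell in value with these genes in neurons: the sum of 6 mesenchyme markers, none at 0, was 488 and 324 CPM in Rep1 and 207 and 167 CPM in Rep2, and that of 3 neural tube markers, none at 0, was 15.4 and 8.72 CPM and 7.17 and 2.46 CPM, and their part was not tested. In BrM (0.601% of all genes called) none of 6 genes tested was called, and *Eya4* went from 283 to 261 CPM in Rep1 and from 315 to 381 CPM in Rep2. In these 3 groups the leading gene had no common direction over the replicates.

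Among the other mesodermal groups, *Eya4* in pSHF (1.01% of all genes called) was at 54.2 CPM in cHet and 66.2 CPM in cKO of Rep1, and 46.4 and 60.4 CPM in Rep2 (log2 fold change 0.34, edgeR adjusted p = 0.0708). *Eya1* in aSHF (0.136% of all genes called) was at 65.4 and 46.3 CPM in Rep1 and 76.4 and 64.7 CPM in Rep2 (log2 fold change -0.35, edgeR adjusted p = 0.28). The sum of the 5 BrM markers, none at 0, was 75.2 and 77.3 CPM in the pSHF of Rep1 and 105 and 132 CPM in that of Rep2, and that of 8 cardiac muscle markers, none at 0, was 384 and 630 CPM in Rep1 and 478 and 729 CPM in Rep2, and the part of neither was tested. In aSHF, pSHF markers were 70.6 and 122 CPM in Rep1 and 107 and 119 CPM in Rep2, epithelium markers 179 and 251 CPM and 139 and 168 CPM, and ectoderm markers 57.4 and 73.6 CPM and 74.7 and 90.5 CPM, and their part was not tested either. For *Eya4* in pSHF and *Eya1* in aSHF, the genotypes did not overlap and neither gene passed the threshold. With 2 libraries per genotype such separation is easily reached, here as for *Eya4* and *Eya2* in the MLPs and *Pax1* in endoderm. It was also seen for *Six4* in pSHF, at a log2 fold change of -0.09, and its share over all genes was not counted. In cardiac muscle (0.0502% of all genes called), *Eya1* was at 34.0 and 21.3 CPM in Rep1 and 17.5 and 10.6 CPM in Rep2 (log2 fold change -0.70, edgeR adjusted p = 1), from 24 to 103 UMIs a library. In the same libraries epithelium markers were 287 and 168 CPM in Rep1 and 249 and 207 CPM in Rep2, otic markers 24.6 and 13.6 CPM and 24.3 and 16.4 CPM, and cardiac muscle markers 19341 and 22377 CPM and 28320 and 29989 CPM, and their part was not tested. No member was called there, in endothelium (percent called 0, with 590 genes at an unadjusted p under 0.05 and 3 called by DESeq2) or in the remaining cells (0.634%). *Pax1* in the remaining cells went from 0.676 to 1.77 CPM in Rep1 and from 0.729 to 0.804 CPM in Rep2, and its log2 fold change of 0.71 became 0.11 without the clusters under 500 cells, a setting chosen after seeing the data. Other pairs reached an unadjusted edgeR p under 0.05 without passing the adjustment. *Pax8* in the MLPs went from 1.51 to 1.88 CPM in Rep1 and from 3.01 to 1.15 CPM in Rep2 (log2 fold change -0.74, edgeR adjusted p = 0.598). *Pax9* in aSHF went from 1.25 to 1.76 CPM and from 5.04 to 8.58 CPM (0.71, edgeR adjusted p = 0.879). *Eya1* in endothelium went from 43.1 to 23.7 CPM and from 23.7 to 22.8 CPM (-0.44, edgeR adjusted p = 0.999). The endothelial cluster led by *Gja4*, where *Eya1* is at 52.3 CPM against 25.7 CPM in the largest endothelial cluster, made up 14.7% of cHet and 0.727% of cKO endothelium in Rep1 and 12.2% and 13.3% in Rep2, and mesenchyme markers were 110 and 59 CPM in Rep1 and 76.5 and 69.9 CPM in Rep2, and their part was not tested. *Eya2* in the remaining cells went from 27.6 to 24.2 CPM and from 29.8 to 27.5 CPM (-0.15, edgeR adjusted p = 0.401). The replicates of *Pax8* went in opposite directions, and those of the other 3 pairs in the same one. *Six4*, the most evenly spread of the 9, had lower values in cKO in 10 of 11 groups. Its log2 fold changes were no lower than -0.23, and its lowest edgeR adjusted p was 0.79. The replicates went in opposite directions in ectoderm, otic cells, neurons, the MLPs and aSHF. The groups share the same 4 libraries, so they are not separate observations.

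**Figure D4:**
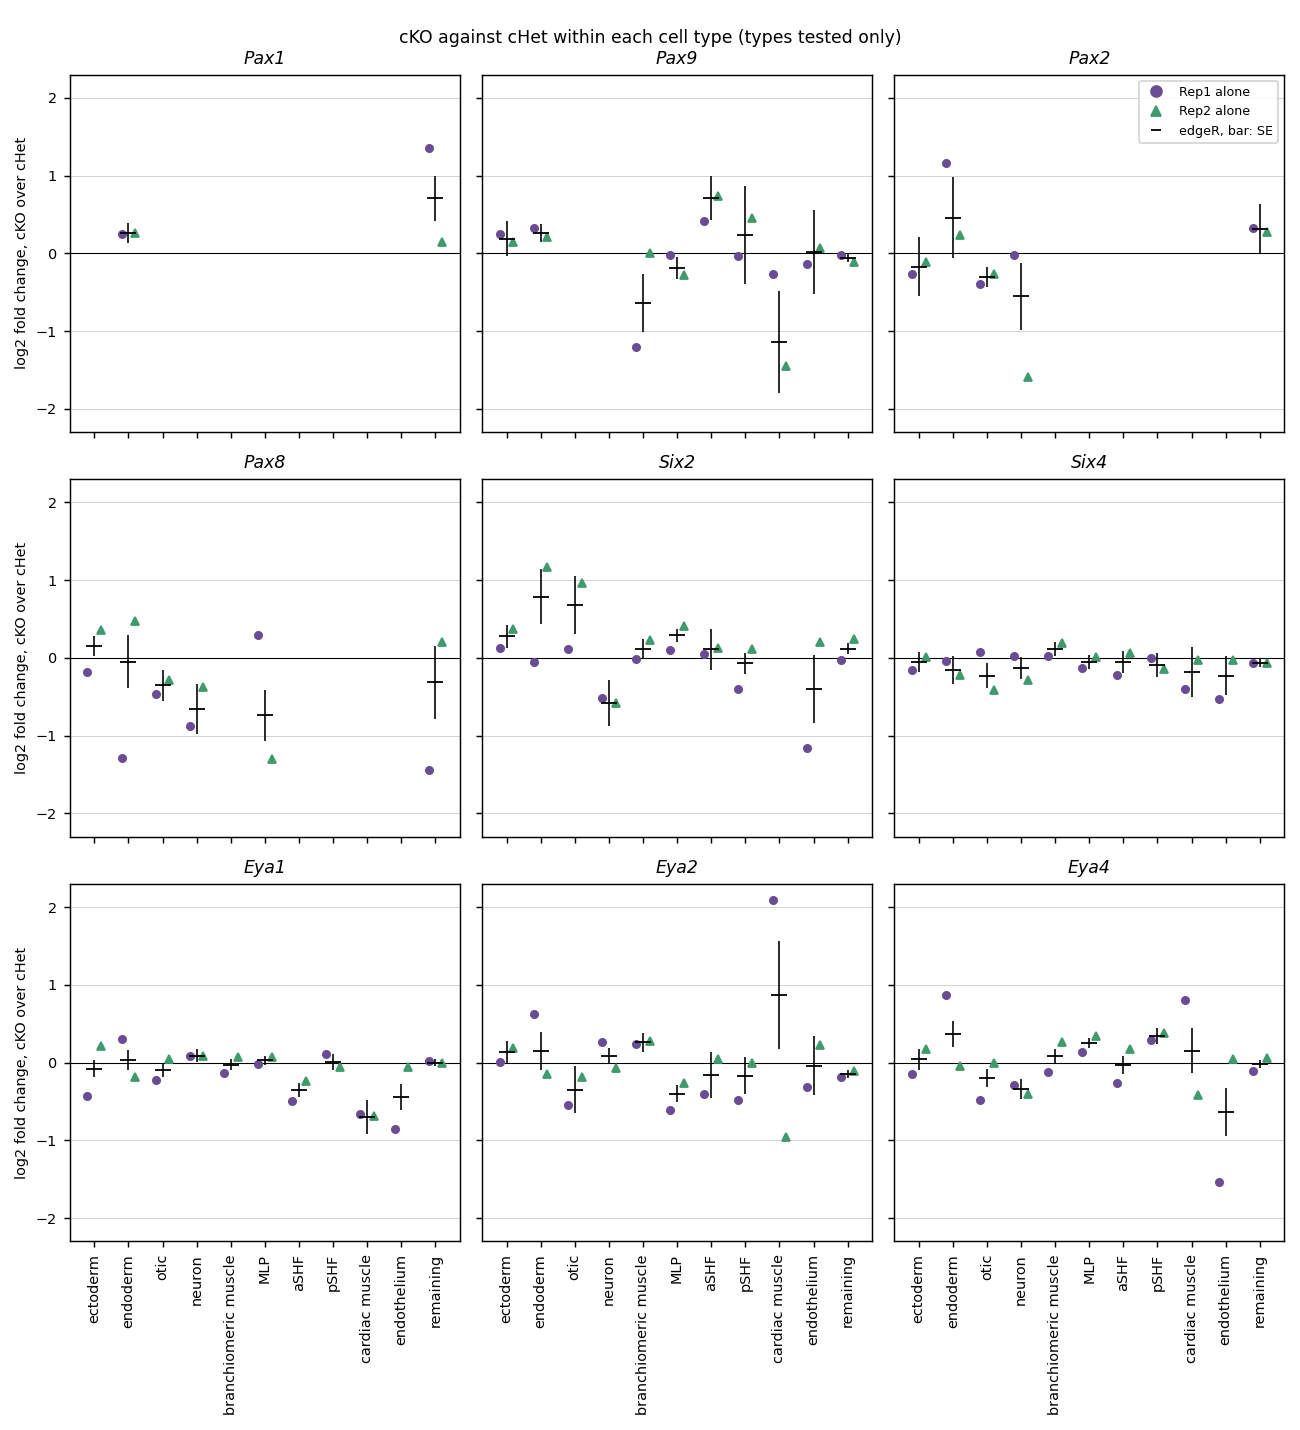
Log2 fold change of cKO over cHet for each gene in the groups where it was tested, from edgeR (black line, bar: SE) and within each replicate (purple circles Rep1, green triangles Rep2). *Eya4* in the MLPs, at 0.25, is the 1 pair called, and most other pairs lie between -0.5 and 0.5.

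The effect of genotype was also compared between the 3 epithelial types, in an edgeR fit with the library as a block. No member differed in any of the 3 pairs of types, beside 0.107% (endoderm minus ectoderm), 0.649% (otic minus ectoderm) and 0.628% (otic minus endoderm) of all genes called. The lowest adjusted p was for *Eya4*, with an otic minus endoderm difference of -0.55 ± 0.20 (SE, log2 scale, edgeR adjusted p = 0.43). *Pax8* had an otic minus ectoderm difference of -0.53 ± 0.22 (edgeR adjusted p = 0.677), and *Pax1*, at 0 in every otic library, gave no estimate against otic cells.

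Other genes of the pathway were counted from 4 lists, over all 11 groups, where 0.333% of all pairs of gene and group were called. Of 12 further Pax, Eya, Dach and Six-family genes, none was called in 69 pairs tested, and of 18 placode and otic genes none was called in 99 pairs. Of 19 pharyngeal pouch genes, none was called higher and 2 were called lower in 128 pairs. *Sox2*, a progenitor factor of the foregut, fell in aSHF from 6.54 to 2.87 CPM in Rep1 and from 7.85 to 2.80 CPM in Rep2 (log2 fold change -1.36 ± 0.27, edgeR adjusted p = 0.0374). *Shh*, a secreted signal of the foregut endoderm, fell in the remaining cells from 0.957 to 0.190 CPM and from 0.327 to 0.0254 CPM (log2 fold change -2.69 ± 0.38, edgeR adjusted p = 0.0264), on 17 UMIs in cKO of Rep1 and 3 in cKO of Rep2. Neither call held without the replicate block or with doublets kept. Fits without any single library also drop the block, and gave log2 fold changes of -1.47 to -1.20 for *Sox2* and -4.57 to -1.63 for *Shh*. That of *Sox2* was also lost with DESeq2 and after thinning, and that of *Shh* with at least 1000 genes per barcode, whereas DESeq2 kept *Shh* (adjusted p = 0.0317). The summed endoderm markers, *Shh* among them, moved the same way: 7 of the 8 were found in each group, and the sum was 3.05 and 1.42 CPM in the aSHF of Rep1, 4.39 and 2.41 CPM in that of Rep2, 2.27 and 1.13 CPM in the remaining cells of Rep1 and 2.28 and 1.17 CPM in those of Rep2, and their part was not tested. Both calls lay outside the endoderm-like cells, where the list's median log2 fold change was 0.11 over 16 genes tested, beside 0.00 over all genes.

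Of 14 genes known to act beside *Eya1*, *Pax2* and Six-family genes in kidney and branchiomeric tissue, 3 pairs of 85 were called, all higher in cKO, beside 0.601% of all genes called in BrM and 0.737% in the MLPs. *Msc*, a repressor in jaw muscle precursors, rose in BrM from 64.0 to 81.4 CPM in Rep1 and from 61.2 to 90.9 CPM in Rep2 (log2 fold change 0.47 ± 0.08, edgeR adjusted p = 0.0275). BrM held 3 clusters, and the cluster with *Msc* among its leading genes made up 42.2% of cHet and 45.3% of cKO BrM cells in Rep1 and 23.2% and 31% in Rep2, a shift whose part was not tested. *Lhx1*, a homeobox gene of the early kidney, rose in BrM from 6.56 to 13.3 CPM and from 3.94 to 7.58 CPM (log2 fold change 0.97 ± 0.16, edgeR adjusted p = 0.0216). *Tcf21*, which acts with *Msc*, rose in the MLPs from 63.1 to 67.6 CPM and from 81.4 to 116 CPM (log2 fold change 0.34 ± 0.07, edgeR adjusted p = 0.000711). None of the 3 calls held with DESeq2 or without the replicate block. Fits without any single library also drop the block, and gave log2 fold changes of 0.38 to 0.54 for *Msc*, 0.55 to 1.39 for *Lhx1* and -0.10 to 0.69 for *Tcf21*. In such a fit without the cKO library of Rep2, which compares across kits, the log2 fold change of *Tcf21* was -0.10, whereas the Rep1 pair alone gave 0.10. After thinning the call of *Tcf21* held (0.43, edgeR adjusted p = 0.0454) and those of *Msc* and *Lhx1* did not. The call of *Tcf21* was also lost with no filter on low counts and with at least 1000 genes per barcode. *Msc* and *Tcf21* were also among the 5 BrM markers that named the clusters. The list's median log2 fold change was 0.07 in BrM and 0.05 in the MLPs, over 11 genes tested in each, beside 0.00 over all genes.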

How the data were processed

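The deposited values are raw UMI counts of each gene in each barcode, which the authors obtained with Cell Ranger. Cell Ranger 8.0.1 and the mm10 build are named in the submitters' processing notes, whereas the file headers name 7.0.1 for Rep1 and 8.0.1 for Rep2. Replicate therefore stands for kit and, by the headers, software version. A barcode entered the work if 3000 or more genes were detected and mitochondrial and hemoglobin UMIs made up no more than 10% and 5%, and doublets were called by Scrublet score at the rate expected for the kit (0.8% per 1000 cells for Next GEM, 0.4% for GEM-X). No correction for free RNA was applied.

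Counts were clustered with scanpy 1.11.5 and leidenalg 0.10.2 (2000 variable genes, 30 components, replicates aligned by a soft k-means correction, 20 neighbours, resolution 0.8, and 0.5 for subclusters). A cluster was named where 3 of its markers were found in 10% of cells and were 2-fold above the other cells after adding 5 CPM. The type with the largest share of its markers gave the name. Ectoderm, endoderm and otic names also needed 3 epithelium markers. A cluster of 117 cells led by *Barx1*, with 3 of 7 ectoderm markers, lacked these and stayed unnamed. A cluster of 354 cells led by *Hes5* met this rule for neurons, with 7 of 9 neuron markers. It was left unnamed by hand after it was seen, so its cells are not in the neuron values. Levels across types are descriptions without a test. UMIs were summed per library and type and compared with edgeR 4.0.16 (TMM, filterByExpr, replicate block) in R 4.3.3, with 1 residual degree of freedom; DESeq2 1.42.0 was an alternative. Same-replicate libraries deviated together (correlation 0.643 to 0.961), and the replicate number marks the kit. The script was tested on simulated data. Wilson intervals cover counting error only. The rule for named genes was all 9 genes in each type, of which pairs with neither a leading level nor an unadjusted p under 0.05 are mostly given as counts, the called genes of 4 lists, and for each gene the 3 most correlated genes, outside the 4 families, with at least 10 CPM in a type. The genes, lists and types were chosen with earlier results of these data known. Positions came from GENCODE M21, which held 32158 of 32285 identifiers, and promoter windows from RefSeq, which held 7 of the 9 genes.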

Additional observations from a re-analysis of the deposited data

How the results depend on the processing

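With 2 libraries per genotype and a block, each gene had 1 residual degree of freedom. Calls therefore leaned on variance information shared across genes, and they moved with the setting. Of 76 pairs of gene and cell group, 1 was called in the main fit. The number was 0 with DESeq2, 0 with RLE scaling, 0 after thinning to 5000 UMIs, 3 with doublets kept and 2 with at least 1000 genes per barcode. With no filter on low counts it was 1, but a different pair, *Pax1* in the remaining cells (log2 fold change 0.73, edgeR adjusted p = 0.0208). It was 0 without any single library, in fits that also drop the block, since 3 libraries leave it no residual degree of freedom, so the loss cannot be put down to the library. Without the replicate block 0 pairs were called, and 0 genes of any kind in all 11 groups. *Six2* and *Eya2* in the MLPs passed with doublets kept, and *Eya1* in aSHF passed with at least 1000 genes per barcode (-0.35, edgeR adjusted p = 0.0225). The latter setting enlarged cHet of Rep1 most, from 5869 kept cells to 22103 barcodes before doublet removal. Over all genes, the MLPs gave 107 calls in the main fit and 0 to 140 under the alternatives, endoderm 10 and 0 to 59, BrM 88 and 0 to 375, otic cells 8 and 0 to 160, ectoderm 2 and 0 to 44, neurons 0 and 0 to 60, aSHF 18 and 0 to 77, pSHF 131 and 0 to 137, cardiac muscle 6 and 0 to 53, endothelium 0 and 0 to 48, and the remaining cells 115 and 0 to 635. The cause was not tested. No difference between epithelial types was called with RLE scaling, with no filter or after thinning, and 0 to 2 genes when a library was left out (2, *Eya1* and *Eya4*, without cKO replicate 2, in fits that omit the type-by-replicate term). The leading type held for 9 of 9 genes after thinning and with cells weighted equally, and for 8 to 9 when a library was left out. By share of cells with a UMI it held for 7 of 9, with *Six4* and *Eya1* the exceptions, and for 9 of 9 after thinning. A change of sign was counted as a reversal only for a called value. With 1 pair called among the 9 genes, this count could hardly find one, and it found none. Uncalled values did change sign, such as *Six2* in the MLPs (0.29), which went to -0.07 without cKO replicate 2, in a fit with no block. Of the called genes of the lists, *Tcf21* in the MLPs (0.34) went to -0.10 without cKO replicate 2, in a fit with no block.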
